A study of Mus musculus with 12 samples.

Results

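The 9 genes described here encode transcription factors that set and hold the identity of T cells: Tcf7, Lef1, Bcl11b, Gata3, Tbx21, Eomes, Runx3, Foxp3 and Ikzf2. They were chosen by symbol, and each matched 1 Ensembl gene of the 43432 in the count table. RNA was sequenced from 12 tumour samples grown from CR705, a pancreatic cancer cell line of the mouse. In 6 of them the CR705 cells were labelled AHRKO, a knockout of Ahr, which encodes the aryl hydrocarbon receptor, a transcription factor activated by small molecules. In the other 6 they were labelled WT. The labels name the knockout for the CR705 cells only, and give no host strain, host genotype, age or number of knockout clones. No sample label names a compound, although the protocol texts mention test compounds in culture. Whether replicates are different animals is not stated, and the spread behind every p may therefore be technical.

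T cells mature in the thymus, where Tcf7, Gata3 and Bcl11b commit progenitors to the lineage. In mature cells Runx3 holds the CD8 lineage, Tbx21 directs the type 1 helper programme, Gata3 the type 2 programme and Foxp3 the regulatory one. Most of these factors also work outside T cells: Tcf7 and Lef1 are effectors of Wnt signalling in epithelium and mesenchyme, Bcl11b acts in skin and neurons, Gata3 in breast epithelium and skin, and Eomes in the early embryo and in NK cells.

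Library totals were 14772343 to 19944273 counts in AHRKO tumours and 19293174 to 35881469 counts in WT tumours. Ahr was at 102 ± 30.6 CPM in AHRKO tumours and 112 ± 8.18 CPM in WT tumours (CPM, counts on scaled library totals, mean ± SD, n = 6 each) and was not called (adjusted p = 0.606, edgeR's quasi-likelihood test), so its level does not check the labels. Of 18 T cell receptor and T cell surface markers, each was detected in at least 1 library. Their summed level was 443 CPM in AHRKO replicate 1, against 33.6 to 93.4 CPM in the other AHRKO libraries and 10.9 to 37.3 CPM in WT libraries. In bulk tumour RNA, more cells of a type and more RNA per cell cannot be told apart. AHRKO replicate 1 also had the lowest sum of 8 epithelial markers, 697 CPM, against 2977 to 4764 CPM in the other AHRKO libraries and 3478 to 4936 CPM in WT libraries. Its 7 fibroblast markers summed to 41360 CPM, against 6732 to 16840 CPM in the other AHRKO libraries and 12160 to 28100 CPM in WT libraries. Fold changes of the 9 factors are given with and without this library, as are those of list genes that it moves by over 1.5 times.

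Of the 9 factors, 6 were higher in AHRKO tumours and 0 lower at an adjusted p under 0.05 (quasi-likelihood test of edgeR, adjusted over 15449 tested genes). Over all tested genes 15.9% were called higher and 13.6% lower, 29.5% in either direction, which are also the shares to set beside the counts of gene lists below. The 6 were Tcf7, Gata3, Tbx21, Runx3, Foxp3 and Ikzf2, and Lef1, Bcl11b and Eomes were not called. DESeq2 and limma-voom likewise gave 6 higher and 0 lower. Over all 15449 genes DESeq2 called 3005 higher and 2505 lower, and limma-voom 3080 higher and 2948 lower. At an unadjusted p under 0.05, edgeR and DESeq2 had 0 lower and limma-voom had 1, Lef1. Without AHRKO replicate 1 the counts were 6 higher and 1 lower, and over all 15606 genes tested in that fit 2980 higher and 2778 lower. The median log2 fold change (AHRKO over WT) was 0.66 over the 9 factors and 0.023 over all tested genes. In 5 factors (Tcf7, Gata3, Runx3, Foxp3 and Ikzf2) all AHRKO libraries lay above all WT libraries, as did 6.03% of tested genes, and in none of the 9 did all lie below, as in 7.35% of tested genes. All 9 passed the filter on low counts, with Tbx21 reaching 10 counts in 5 AHRKO libraries and 1 WT library.

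**Figure D1:**
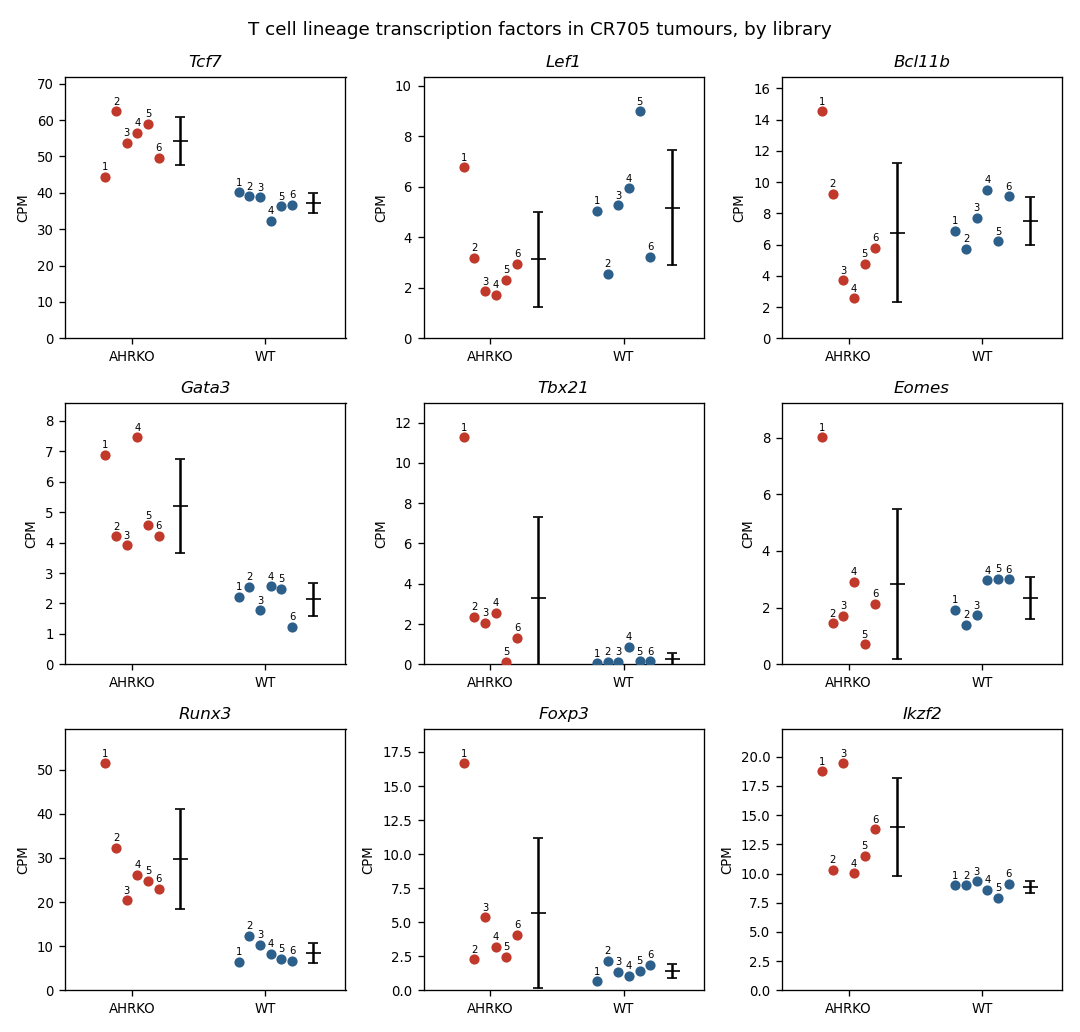
Level of each factor in every library, in CPM (counts on scaled library totals) on linear axes from 0, AHRKO left of WT. Points are libraries with their replicate number and black bars are mean ± SD (n = 6 per group), cut off at 0 where the SD exceeds the mean. Tcf7, Gata3, Runx3, Foxp3 and Ikzf2 separate the groups, and AHRKO replicate 1 is the highest library for Bcl11b, Tbx21, Eomes, Runx3 and Foxp3.

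Levels differed widely among the factors. Per kilobase of merged exons, Tcf7 was highest in AHRKO tumours, at 20.7 ± 2.48, and in WT tumours, at 14.2 ± 1.07 CPM per kilobase (mean ± SD, n = 6 each). Runx3 came next, at 5.93 ± 2.27 in AHRKO tumours and 1.70 ± 0.465 CPM per kilobase in WT tumours, with no overlap with Tcf7 in either group. The order in AHRKO tumours went on with Tbx21, Gata3, Foxp3, Ikzf2, Bcl11b, Eomes and Lef1, and from Runx3 on the ranges of neighbours overlapped. The place of Tbx21 rests on AHRKO replicate 1, the 1 library of 6 in which it was above Gata3. Without that library Gata3 was at 1.23, Ikzf2 at 1.12, Foxp3 at 0.757 and Tbx21 at 0.680 CPM per kilobase in AHRKO tumours (n = 5), followed by Bcl11b, Eomes and Lef1. In WT tumours Runx3 lay above Bcl11b without overlap, followed by Ikzf2, Lef1, Eomes, Gata3, Foxp3 and Tbx21, whose neighbours overlapped. Tbx21 was at 1.32 ± 1.61 in AHRKO tumours and, as the lowest of the 9, at 0.0977 ± 0.125 CPM per kilobase in WT tumours.

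Tcf7 (ENSMUSG00000000782, mm10 chromosome 11, 52252371 to 52283014, minus strand) encodes an HMG-box factor of naive and stem-like T cells that also serves Wnt signalling. It had 44.4 CPM in the lowest, 55.1 in the median and 62.4 in the highest AHRKO library, against 32.3, 37.7 and 40.1 CPM in the lowest, median and highest WT library. The groups did not overlap. Tcf7 rose by 0.54 ± 0.09 on the log2 scale (SE; adjusted p = 0.00157, edgeR's quasi-likelihood test). It was 0.60 without AHRKO replicate 1 (adjusted p = 0.000341). The library with the most T cell marker transcripts of its group had the least Tcf7 of its group, both among AHRKO libraries (replicate 1) and among WT libraries (replicate 4). Within neither group did the relation of Tcf7 to these markers pass a test, and it rested on the outer libraries, as given below. In WT replicate 5, Tcf7 stood at 36.3 CPM while the 18 T cell markers together summed to 18.4 CPM. These values were 32.3 and 37.3 CPM in WT replicate 4, and 44.4 and 443 CPM in AHRKO replicate 1. The part of T cells and of other cells in the level of Tcf7 was not tested.

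Lef1 (ENSMUSG00000027985, chromosome 3, 131110471 to 131224356, plus strand) encodes the closest HMG-box relative of Tcf7 in T cells. Its level was 1.71 CPM in the lowest, 2.63 in the median and 6.76 in the highest AHRKO library, against 2.54, 5.16 and 8.98 CPM in WT libraries. In 3 AHRKO libraries it was below every WT library, and the other 3, replicate 1 among them, lay within the WT range. The log2 fold change was -0.72 (95% interval -1.54 to 0.10) and did not pass (adjusted p = 0.171, edgeR's quasi-likelihood test). It was -1.09 and passed without AHRKO replicate 1 (adjusted p = 0.0176). An antisense gene overlaps 13.7% of the exon bases of Lef1, and without a stated strand setting its reads cannot be told apart from those of Lef1.

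Bcl11b (ENSMUSG00000048251, chromosome 12, 107910403 to 108003602, minus strand) encodes a zinc finger factor required for T cell commitment. It had 2.56 CPM in the lowest, 5.27 in the median and 14.5 in the highest AHRKO library, against 5.74, 7.32 and 9.52 CPM in WT libraries. Of the AHRKO libraries, 1 lay above and 3 below all WT libraries. The log2 fold change was -0.15 (95% interval -0.93 to 0.63) and did not pass (adjusted p = 0.778, edgeR's quasi-likelihood test). It was -0.52 without AHRKO replicate 1 (adjusted p = 0.168) and 0.03 without AHRKO replicate 4 (adjusted p = 0.962). The 2 AHRKO libraries with the most Bcl11b, replicate 1 at 14.5 and replicate 2 at 9.24 CPM, had the highest fibroblast marker sums of their group, 41360 and 16840 CPM, and also the highest T cell marker sums, 443 and 93.4 CPM. Among WT libraries, replicate 2, with the least Bcl11b, had a fibroblast sum of 27320 CPM and a T cell marker sum of 29.9 CPM. In replicate 4, with the most Bcl11b, these sums were 14200 and 37.3 CPM. In replicate 6, with 9.09 CPM of Bcl11b, they were 18150 and 16.8 CPM. The part of either cell type in the level of Bcl11b was not tested.

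The promoter window of Bcl11b in RefSeq (GRCm38.p6, chr12:108003365-108003664, minus strand) is shown because, of the 14 windows of 8 of the factors, it is the one that holds CTTTGAA (reverse TTCAAAG), a motif of the TCF/LEF proteins that Tcf7 and Lef1 encode. Windows run from 250 bases before to 50 after an annotated start and were searched on both strands. The match is in capitals, and the motif is in 5.14% of all 32851 such windows.
Bcl11b: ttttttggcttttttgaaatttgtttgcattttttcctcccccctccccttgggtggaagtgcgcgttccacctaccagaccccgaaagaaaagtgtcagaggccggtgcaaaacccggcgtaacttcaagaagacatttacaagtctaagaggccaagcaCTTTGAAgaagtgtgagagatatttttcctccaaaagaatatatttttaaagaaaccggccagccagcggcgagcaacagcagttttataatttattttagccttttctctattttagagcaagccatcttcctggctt
The match describes these letters and is not a binding site shown by these data.

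Gata3 (ENSMUSG00000015619, chromosome 2, 9857078 to 9890034, minus strand) encodes the zinc finger factor of thymic development, type 2 helper T cells and group 2 innate lymphoid cells. It had 3.92 CPM in the lowest, 4.40 in the median and 7.46 in the highest AHRKO library, against 1.24, 2.35 and 2.56 CPM in WT libraries. The groups did not overlap, and the highest library was AHRKO replicate 4. Gata3 rose by 1.28 ± 0.24 on the log2 scale (SE; adjusted p = 0.00261, edgeR's quasi-likelihood test), and 1.19 without AHRKO replicate 1 (adjusted p = 0.00266). Of 11 listed genes of the type 2 programme 5 were tested and 1 rose, beside 15.9% of all tested genes. It was the chemokine receptor gene Ccr8, with a log2 fold change of 2.06 (adjusted p = 0.0074, edgeR's quasi-likelihood test). The chemokine receptor gene Ccr4, at 1.24 (adjusted p = 0.0548), and the growth factor gene Areg, at -0.53 (adjusted p = 0.452), did not pass. The other listed genes that were not tested had too few counts for the filter. Their mean levels in AHRKO tumours ran from 0.097 CPM (Ptgdr2) to 1.25 CPM (Il13). In WT tumours Ptgdr2 averaged 0.083 CPM and Il13 0.138 CPM.

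Tbx21 (ENSMUSG00000001444, chromosome 11, 97098071 to 97115331, minus strand) encodes T-bet, the T-box factor of type 1 helper T cells, which activates the interferon gamma gene. Its level was 0.129 CPM in the lowest, 2.22 in the median and 11.3 in the highest AHRKO library, against 0.042, 0.141 and 0.870 CPM in WT libraries. In 5 AHRKO libraries it was above all WT libraries, and AHRKO replicate 5, with 2 counts, lay within the WT range. The WT libraries held 31 counts in all, 17 of them in replicate 4, which limits the precision of the fold change. Tbx21 rose by 3.79 ± 0.90 on the log2 scale (SE; adjusted p = 0.00852, edgeR's quasi-likelihood test). It was 2.86 without AHRKO replicate 1 (adjusted p = 0.00832) and 4.75 without WT replicate 4 (adjusted p = 0.00561).

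Eomes (ENSMUSG00000032446, chromosome 9, 118478212 to 118486132, plus strand) encodes the related T-box factor of cytotoxic T cells and NK cells. It had 0.708 CPM in the lowest, 1.93 in the median and 8.01 in the highest AHRKO library, against 1.40, 2.45 and 3.03 CPM in WT libraries. The groups overlapped, with 1 AHRKO library above and 1 below all WT libraries. The log2 fold change was 0.27 (95% interval -0.77 to 1.32) and did not pass (adjusted p = 0.698, edgeR's quasi-likelihood test). It was -0.37 without AHRKO replicate 1 (adjusted p = 0.396). The difference in fold change between Eomes and Tbx21 was not tested.

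Of 13 listed genes of the type 1 and cytotoxic programme, 12 were tested, 10 rose and 2 were not called. The interleukin receptor gene Il18rap rose by 1.38 on the log2 scale (adjusted p = 0.00015), the cytotoxic granule gene Nkg7 by 3.75 (adjusted p = 0.00569) and the chemokine receptor gene Cxcr3 by 3.53 (adjusted p = 0.00547, edgeR's quasi-likelihood test). Il18rap stood at 68.6 ± 13.8 CPM in AHRKO tumours and 26.4 ± 4.60 CPM in WT tumours (SD, n = 6 each). All 18 T cell markers together summed to at most 37.3 CPM in WT libraries, and the part of other cells in the level of Il18rap was not tested. The count that rose was 8 without AHRKO replicate 1, with Nkg7 at 2.89 and Cxcr3 at 2.53. Of 7 NK cell markers 6 were tested and 5 rose, among them the NK receptor genes Klrk1 at 3.24, Ncr1 at 2.84 and Klrd1 at 2.86 on the log2 scale. The count was 4 without AHRKO replicate 1, and these values were 2.18, 1.89 and 1.84. The sixth, Klra4, had 10.4 ± 8.17 CPM in AHRKO tumours and 15.8 ± 3.17 CPM in WT tumours (SD, n = 6 each), where it made up most of the summed level, and its log2 fold change of -0.61 did not pass (adjusted p = 0.282, edgeR's quasi-likelihood test). Limma-voom called it lower. The summed NK cell marker level was 10.2 to 95.4 CPM in AHRKO libraries and 16.7 to 21.9 CPM in WT libraries, highest in AHRKO replicate 1. The part of NK cells in the levels of Tbx21 and Eomes was not tested.

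Runx3 (ENSMUSG00000070691, chromosome 4, 135120652 to 135177990, plus strand) encodes the Runt-domain factor that silences Cd4 in the CD8 lineage. It had 20.4 CPM in the lowest, 25.5 in the median and 51.4 in the highest AHRKO library, against 6.43, 7.69 and 12.3 CPM in WT libraries. The groups did not overlap. The log2 fold change was 1.80 ± 0.25 (SE; adjusted p = 0.000505, edgeR's quasi-likelihood test), with the smallest p of the 9 factors, and 1.57 without AHRKO replicate 1 (adjusted p = 0.000172). AHRKO replicate 5 held 24.8 CPM of Runx3, near its group's median, with a T cell marker sum of 33.6 CPM. Among WT libraries only replicate 4, at 37.3 CPM, had a higher marker sum. The next highest was WT replicate 2, at 29.9 CPM. The part of T cells and of other cells in the level of Runx3 was not tested. Cbfb, which encodes the shared partner subunit of the Runt-domain factors, had 176 ± 14.2 CPM in AHRKO tumours and 216 ± 12.01 CPM in WT tumours (SD, n = 6 each). It fell by 0.29 on the log2 scale (adjusted p = 0.0114, edgeR's quasi-likelihood test), and 6 of 6 AHRKO libraries were below all WT libraries.

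Of the 2 promoter windows of Runx3, the upstream one (GRCm38.p6, chr4:135120395-135120694, plus strand) is shown because it is the one among the 14 windows that holds the RUNX motif TGTGGTT (reverse AACCACA), the motif its own protein family reads. It has 2 matches, in capitals, and the motif is in 5.27% of all windows. Gene counts do not tell which start was used.
Runx3: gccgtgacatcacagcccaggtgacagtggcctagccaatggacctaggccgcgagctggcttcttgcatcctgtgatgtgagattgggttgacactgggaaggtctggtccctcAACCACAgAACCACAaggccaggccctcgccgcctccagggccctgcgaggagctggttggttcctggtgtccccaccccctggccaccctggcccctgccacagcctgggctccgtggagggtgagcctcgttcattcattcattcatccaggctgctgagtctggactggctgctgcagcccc
The shown window is 63.7% G and C, and the downstream one, with no match, 77.3%.

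Foxp3 (ENSMUSG00000039521, chromosome X, 7573644 to 7595245, plus strand) encodes the forkhead factor that defines regulatory T cells. It had 2.27 CPM in the lowest, 3.62 in the median and 16.7 in the highest AHRKO library, against 0.672, 1.40 and 2.17 CPM in WT libraries. The groups did not overlap, but the lowest AHRKO library stood only just above the highest WT library. The log2 fold change was 1.98 ± 0.51 (SE; adjusted p = 0.0123, edgeR's quasi-likelihood test), and 1.26 without AHRKO replicate 1 (adjusted p = 0.00872). Flicr, a noncoding gene on the same strand, overlaps 18.6% of the exon bases of Foxp3 and had 61 counts over all libraries, against 780 for Foxp3. On the opposite strand, Ppp1r3f overlaps 5.81% of them and had 424 counts, and the protein coding gene Ccdc22 overlaps 12.9% and had 0 counts. Without a stated strand setting, reads of these genes in the shared bases cannot be told apart from those of Foxp3.

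The 2 promoter windows of Foxp3 are shown because they are the ones among the 14 that hold GCGTG (reverse CACGC), the core motif of the AHR complex. They are chrX:7579426-7579725 and chrX:7580233-7580532 (GRCm38.p6, plus strand), each with 1 match in capitals, and the motif is in 32.4% of all windows.
Foxp3 first window: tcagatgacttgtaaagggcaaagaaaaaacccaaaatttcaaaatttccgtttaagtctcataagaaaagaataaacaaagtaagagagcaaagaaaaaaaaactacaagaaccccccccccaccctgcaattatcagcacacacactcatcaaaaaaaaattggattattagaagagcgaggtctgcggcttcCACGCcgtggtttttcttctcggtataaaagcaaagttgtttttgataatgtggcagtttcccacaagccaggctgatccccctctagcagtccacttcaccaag
Foxp3 second window: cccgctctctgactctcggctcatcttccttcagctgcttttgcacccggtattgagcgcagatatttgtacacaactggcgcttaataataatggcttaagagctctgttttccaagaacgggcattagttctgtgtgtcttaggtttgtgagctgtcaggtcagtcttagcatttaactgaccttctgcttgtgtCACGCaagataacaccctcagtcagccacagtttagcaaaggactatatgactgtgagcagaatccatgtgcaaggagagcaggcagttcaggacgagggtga
Nothing about binding follows from a match, or from the lack of one in the windows of the other factors.

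Ikzf2 (ENSMUSG00000025997, chromosome 1, 69531214 to 69687245, minus strand) encodes Helios, an Ikaros family zinc finger factor of many regulatory T cells. It had 10.0 CPM in the lowest, 12.6 in the median and 19.4 in the highest AHRKO library, against 7.94, 8.995 and 9.32 CPM in WT libraries. The groups did not overlap, and the highest library was AHRKO replicate 3. The coefficient of variation was 30.0% in AHRKO tumours and 5.63% in WT tumours. Ikzf2 rose by 0.66 ± 0.18 on the log2 scale (SE; adjusted p = 0.0161, edgeR's quasi-likelihood test), and 0.56 without AHRKO replicate 1 (adjusted p = 0.0209).

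Of 12 listed genes of the regulatory T cell programme, 11 were tested, 7 rose and 4 were not called. The checkpoint receptor gene Ctla4 rose by 2.11 (adjusted p = 0.0107), the integrin gene Itgae by 1.56 (adjusted p = 0.0143) and the ectonucleotidase gene Nt5e by 0.49 on the log2 scale (adjusted p = 0.0118, edgeR's quasi-likelihood test). Nt5e stood at 131 ± 13.5 CPM in AHRKO tumours and 93.3 ± 18.2 CPM in WT tumours (SD, n = 6 each). All 18 T cell markers together summed to at most 37.3 CPM in WT libraries, and the part of other cells in the level of Nt5e was not tested. Without AHRKO replicate 1, 7 rose and 1 fell, with Ctla4 at 1.43.

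**Figure D2:**
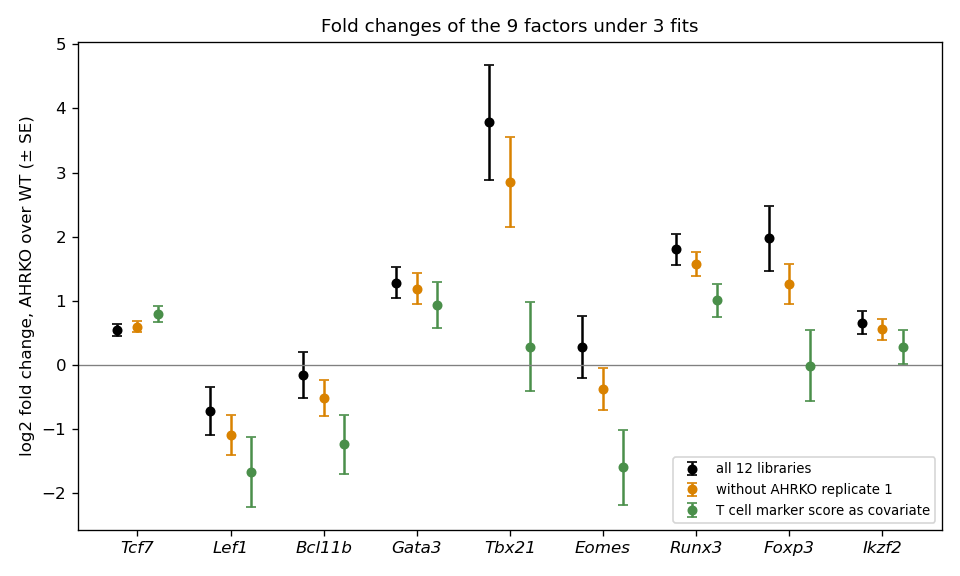
Log2 fold change (AHRKO over WT, with SE) of each factor from all 12 libraries, without AHRKO replicate 1, and with the T cell marker score as a covariate. Tcf7 and Runx3 are called higher in all 3 fits, at 0.54, 0.60 and 0.80 for Tcf7 and 1.80, 1.57 and 1.01 for Runx3. Gata3, Tbx21 and Ikzf2 also lie above 0 in all 3 fits but are not called with the covariate, with which Foxp3 goes to -0.01.

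The factors were then set against the T cell marker transcripts of each library. All 18 markers rose, with a median log2 fold change of 2.84 (1.88 without AHRKO replicate 1). The receptor chain gene Cd3e rose by 3.05 and the surface receptor gene Cd6 by 2.63, and without that library by 2.30 and 1.88. The T cell marker score, the mean log2 CPM of the markers, was 0.826 to 4.53 in AHRKO libraries and -0.988 to 0.984 in WT libraries. With that score as a covariate 2 of the 9 factors were called higher, Tcf7 at 0.80 (adjusted p = 0.00278) and Runx3 at 1.01 (adjusted p = 0.0183, same test). Over all 15449 genes in that fit 1463 were called higher and 1665 lower. The score lay above all WT libraries in 5 AHRKO libraries, so it carries part of the difference between the groups. Gata3 was at 0.93 (adjusted p = 0.0842), Ikzf2 at 0.28 (adjusted p = 0.476), Tbx21 at 0.29 (adjusted p = 0.803) and Foxp3 at -0.01 (adjusted p = 0.991). Lef1 was at -1.67 (adjusted p = 0.0501), Bcl11b at -1.24 (adjusted p = 0.0771) and Eomes at -1.60 (adjusted p = 0.0729).

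Each factor was also expressed per T cell marker transcript, as the log2 of its CPM plus 0.5 over the summed CPM of the 18 markers plus 0.5. The groups were compared by exact 2-sided permutation tests, whose smallest possible p is 0.00216. The ratio of Lef1 averaged -4.90 ± 0.78 in AHRKO tumours and -2.03 ± 0.90 in WT tumours (SD, n = 6 each), a difference of -2.87 (exact p = 0.00216, adjusted over the 9 ratios 0.00649). Bcl11b differed by -2.52 and Eomes by -2.22, with the same exact p. For these 3 genes 6 of 6 AHRKO libraries lay below all WT libraries. Tcf7 differed by -1.66 (exact p = 0.013, adjusted 0.0234) and Ikzf2 by -1.61 (exact p = 0.00866, adjusted 0.0195), with 5 of 6 AHRKO libraries below all WT libraries. The marker sum is the denominator, so the ratio falls for any gene that rose less than the markers did.

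Runx3 and Tbx21 had the smallest differences in this ratio with 0.5 CPM added. Runx3 was at -1.78 ± 0.87 in AHRKO tumours and -1.30 ± 0.45 in WT tumours, a difference of -0.48 (exact permutation p = 0.266, adjusted 0.266). Tbx21 was at -5.26 ± 0.39 in AHRKO tumours and -4.94 ± 0.43 in WT tumours (exact permutation p = 0.216, adjusted 0.244). That difference of -0.31 became 0.60 with 0.1 CPM added in place of 0.5 (adjusted p = 0.192, exact permutation), and -0.66 and called with Cd3e, Cd3d and Cd3g as the only markers (adjusted p = 0.0487, exact permutation). With 0.1 CPM added Foxp3 was at -0.597 and Runx3 at -0.455, so the order of the differences depends on the amount added. The median of Tbx21 in WT libraries was 0.141 CPM, below the 0.5 CPM added. Runx3 was called at -0.75 without AHRKO replicate 5 (adjusted p = 0.0438, exact permutation). Gata3 differed by -1.09 (exact permutation p = 0.0303, adjusted 0.0455) and Foxp3 by -0.80 (exact permutation p = 0.0368, adjusted 0.0473). These last calls were lost in 10 of 15 alternatives for Gata3 and in 11 of 15 for Foxp3, among them without AHRKO replicate 1, at -0.74 for Gata3 and -0.73 for Foxp3.

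**Figure D3:**
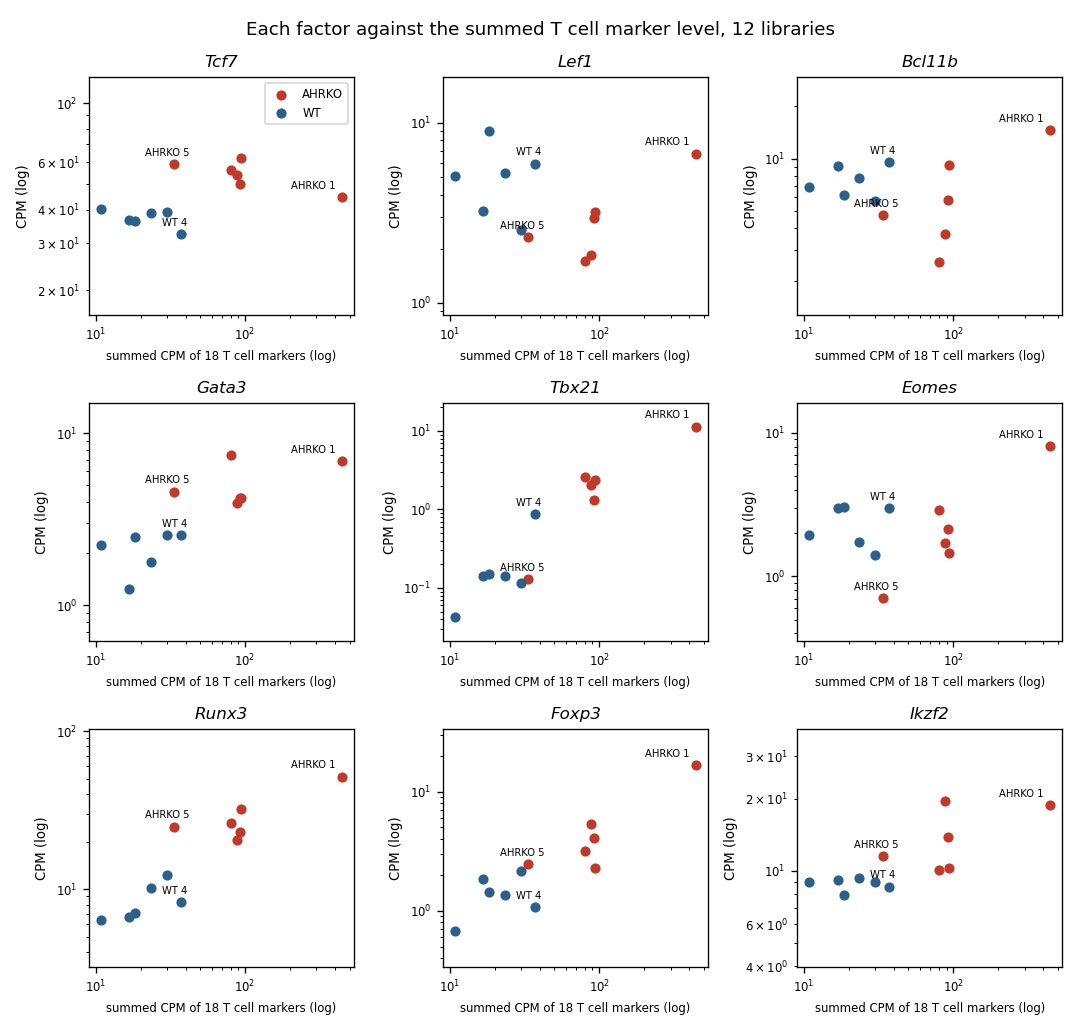
Level of each factor (CPM, log axis) against the summed CPM of 18 T cell markers (log axis) in 12 libraries, AHRKO in red and WT in blue, with AHRKO replicates 1 and 5 and WT replicate 4 named. AHRKO replicate 1 lies far to the right at 443 CPM, where Tbx21 and Foxp3 are at their highest and Tcf7, at 44.4 CPM, is the lowest of the AHRKO group.

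Within groups, 18 relations of a factor to the T cell marker score were computed over 6 libraries each, and none passed after adjustment (lowest adjusted p 0.228 for Pearson's r and 0.35 for Spearman's rho, exact permutation). Among AHRKO libraries Eomes had r = 0.928 (exact p = 0.0306) and rho = 0.486 (exact p = 0.356). Foxp3 had r = 0.896 (exact p = 0.0417) and rho = 0.371 (exact p = 0.497). Without AHRKO replicates 1 and 5, the libraries farthest from the median score, r was -0.871 for Eomes and 0.087 for Foxp3. The relations of Eomes and Foxp3 thus rest on those libraries. Lef1 had r = 0.813 (exact p = 0.0681) and rho = 0.829 (exact p = 0.0583), and Bcl11b r = 0.701 (exact p = 0.101) and rho = 0.829 (exact p = 0.0583). Without those libraries r was 0.728 for Lef1 and 0.808 for Bcl11b. Tcf7 had r = -0.78 (exact p = 0.0819) and rho = -0.429 (exact p = 0.419) among AHRKO libraries. Among WT libraries it had r = -0.626 (exact p = 0.181) and rho = -0.486 (exact p = 0.356). Without the 2 libraries farthest from the median score of each group, r of Tcf7 was -0.0588 in AHRKO and 0.961 in WT.

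Likeness among genes was measured as Pearson's r of log2 CPM centred within each group over the 12 libraries, which include the divergent AHRKO replicate 1, and is given as a description. Tcf7 had a negative r with each of the other 8 factors, from -0.776 with Eomes to -0.255 with Runx3. The closest pairs were Tbx21 and Eomes at 0.836, Foxp3 and Ikzf2 at 0.709, and Lef1 and Bcl11b at 0.683. Among 12284 other genes, those most like Bcl11b were Gli1 (r = 0.976) and Gli2 (0.951), transcription factors of hedgehog signalling, and Pcsk7 (0.947). Tbx21 was most like Gyg (0.979) and the proteasome activator genes Psme2 (0.978) and Psme1 (0.942). Tcf7 was most like Mogs (0.928), Zmynd19 (0.925) and Psmc3ip (0.920), and Lef1 most like Ube2d1 (0.887), Fam208a (0.878) and Castor2 (0.877). Gata3 was most like Ywhab (0.895), Coa4 (0.852) and Slc7a11 (0.847), and Eomes most like Ptpn22 (0.957), Rbm12b1 (0.953) and Pon3 (0.939). For Runx3 they were Stk40 (0.963), Aldh1b1 (0.945) and Bfar (0.936), for Foxp3 Tal1 (0.948), Ldb2 (0.943) and Fam167b (0.937), and for Ikzf2 Spag9 (0.907), Wdfy1 (0.906) and Fnip1 (0.882).

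Of 23 other listed transcription factors of T cells 22 were tested, 7 rose and 1, Cbfb, fell, with a median log2 fold change of 0.26. Irf4, a factor of activated lymphocytes, rose by 2.87 (adjusted p = 0.00233) and was above all WT libraries in 6 of 6 AHRKO libraries. The homeodomain gene Hopx rose by 2.47 (adjusted p = 0.00464, edgeR's quasi-likelihood test). Without WT replicate 4, 4 rose and 1 fell. Of 20 relatives of the 9 factors in the same gene families 17 were tested, 3 rose and 3 fell. Of all tested genes 15.9% rose and 13.6% fell. The Ikaros family genes Ikzf1 and Ikzf3, used widely in lymphocytes, rose by 1.86 (adjusted p = 0.00795) and 2.57 (adjusted p = 0.0148), and without AHRKO replicate 1 by 1.24 and 1.72, while Gata6, a factor of endodermal epithelium, had a log2 fold change of -1.05 (adjusted p = 0.00841, edgeR's quasi-likelihood test). Among these relatives 5 rose and 4 fell without AHRKO replicate 1, and 4 rose and 1 fell without WT replicate 4. Over all genes 2980 of 15606 rose and 2778 fell without AHRKO replicate 1, and 1828 of 15611 rose and 1636 fell without WT replicate 4.

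Of 10 listed genes of the naive and stem-like T cell programme, to which Tcf7 and Lef1 belong, 8 were tested, 5 rose and 1 fell. Slamf6, a surface receptor of stem-like T cells, rose by 2.34 (adjusted p = 0.00551) and the follicular homing receptor gene Cxcr5 by 1.04 (adjusted p = 0.00807). The one that fell was the actin crosslinker gene Actn1, with a log2 fold change of -0.64 (adjusted p = 0.00307), which many cell types express. Of 13 listed Wnt/beta-catenin target genes 10 were tested, 1 rose and 2 fell, beside 15.9% and 13.6% of all tested genes. Axin2, a feedback inhibitor of the pathway, rose by 0.71 (adjusted p = 0.035). Rnf43, which encodes a ubiquitin ligase that removes Wnt receptors, fell by 2.27 (adjusted p = 0.0008), and the receptor gene Tnfrsf19 fell by 1.06 (adjusted p = 0.0425, edgeR's quasi-likelihood test). Without AHRKO replicate 1, 2 of these targets rose and 2 fell, and without WT replicate 4, 0 rose and 1 fell.

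Markers of other cells were measured beside the factors. Of 6 B cell markers 3 were tested and 3 rose, with Cd22 at 2.21, Cd79a at 2.56 and Cd79b at 2.99 on the log2 scale (2.17 for Cd79b without AHRKO replicate 1). Of 7 myeloid markers 6 rose, with C1qa at 1.52, Cd68 at 1.41 and Cd14 at 0.55, and 5 rose without AHRKO replicate 1 and 3 without WT replicate 4. Of 8 epithelial, 7 fibroblast and 6 endothelial markers edgeR called 0, with 2 epithelial markers lower at an unadjusted p under 0.05. DESeq2 called 2 epithelial markers lower, and limma-voom 2 epithelial and 2 fibroblast markers. Without AHRKO replicate 1, 4 fibroblast markers were lower, and 1 epithelial marker was higher and 1 lower. Of 6 keratinocyte markers 3 were tested and 2 fell, Ivl at -2.07 and Krt10 at -0.52, while the basal keratin gene Krt14, at 1.27, did not pass (adjusted p = 0.105, edgeR). Krt5, its partner keratin gene, was not tested and had 2.58 CPM in AHRKO tumours and 0.047 CPM in WT tumours on average. Without AHRKO replicate 1, 4 keratinocyte markers were tested, and 2 were higher (Krt14 at 1.51, Trp63 at 2.39) and 2 lower. The part of these cells in the levels of the 9 factors was not tested.

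**Figure D4:**
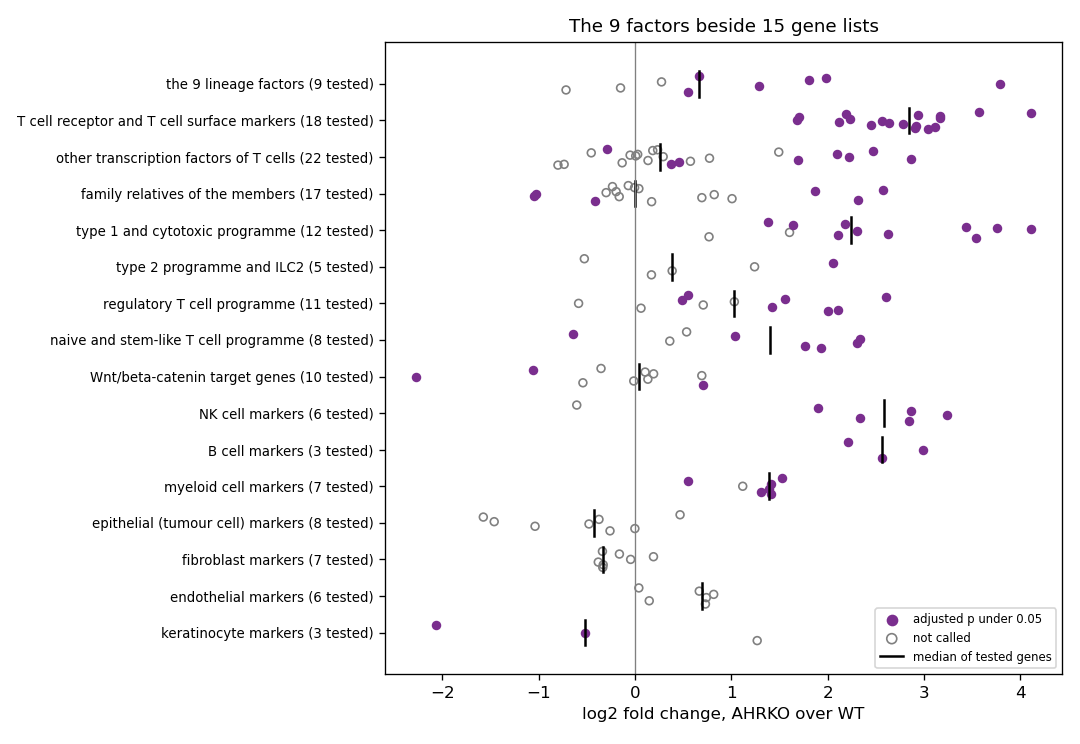
Log2 fold change (AHRKO over WT) of every tested gene among the 9 factors and 15 gene lists. Filled points passed an adjusted p under 0.05, open points did not, and black lines are medians: 2.84 for the 18 T cell markers, 0.66 for the 9 factors and -0.0058 for their family relatives.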

How the data were processed

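The authors deposited raw read counts per Ensembl gene for 12 tumour libraries. Per the submitters' processing notes, the build was mm10 and the tools were HISAT2, SAMtools, HTSeq and DESeq2. For annotation, strand setting and versions the sources used here give nothing. Symbols, coordinates and merged exon lengths were taken from GENCODE M21 by gene identifier (42462 of 43432 genes matched), and promoter windows from RefSeq.

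Genes were kept by edgeR's filterByExpr (15449 genes) with TMM scaling, and the 2-sided quasi-likelihood test of edgeR set AHRKO against WT, with p-values adjusted across these genes after Benjamini and Hochberg. SE was the absolute log2 fold change over the square root of F. The software was DESeq2 1.42.0, edgeR 4.0.16 and limma 3.58.1 in R 4.3.3, and scipy 1.17.1. The fits were also run on simulated counts without a divergent library, with changes placed only in genes above a count threshold. That run does not bear on AHRKO replicate 1 or on low counts such as those of Tbx21. Alternatives were other tests, scalings and filters, a replicate block, the T cell marker score as a covariate, other pseudocounts and markers for the ratios, and leaving out each library. The members and gene lists were chosen with earlier results of these data known. Named were all 9 factors and Ahr, from each list up to 3 tested genes with the smallest p, of which the text gives some, and for each factor the 3 genes most like it with a mean log2 CPM of at least 1. Klra4, Krt5, Trp63, Lrrc32, Il13 and Ptgdr2 are outside this rule and were named after their values were seen. No 2 libraries of a group agreed within sampling noise (lowest chi-squared per degree of freedom 12.6).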

Additional observations from a re-analysis of the deposited data

Results flagged for a closer look

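In the 18 combinations of a factor and a group, 5 had a library whose gap to the nearest other library took up an unusually large part of the group's whole range by Dixon's test at the 95% level. With normally spread values chance flags about 1 in 20 groups. These values were CPM, not on a log scale, and the 18 combinations share the same 12 libraries, so that rate need not hold here. In 4 of the 5 the library was AHRKO replicate 1. It had 6.76 CPM of Lef1, against 1.71 to 3.19 CPM in the other AHRKO libraries, and 11.3 CPM of Tbx21, against 0.129 to 2.56 CPM. It had 8.01 CPM of Eomes, against 0.708 to 2.91 CPM, and 16.7 CPM of Foxp3, against 2.27 to 5.36 CPM. The other was WT replicate 4, with 0.870 CPM of Tbx21, against 0.042 to 0.149 CPM in the other WT libraries.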

How the results depend on the processing

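In the fits that left out 1 library, 6 factors were called higher in each and 0 to 1 lower. The 1 called lower was Lef1 without AHRKO replicate 1 (-1.09). Without both AHRKO replicate 1 and WT replicate 4, an alternative chosen after seeing the data, 8 factors were tested, 5 were higher and 1, Lef1, was lower (-1.05). Over all 15466 genes tested in that fit 2519 were higher and 2336 lower. With the T cell marker score as a covariate 2 factors were higher, Foxp3 was at -0.011 and Eomes at -1.60. Eomes was also below 0 with limma-voom (-0.50), without AHRKO replicate 1 (-0.37) and without both named libraries (-0.30). Over fits without 1 library Eomes ran from -0.37 to 0.47 and Bcl11b from -0.52 to 0.027, the last without AHRKO replicate 4. The log2 ratio of Tbx21 to the T cell markers was 0.60 with a pseudocount of 0.1 CPM; with the 3 Cd3 genes as markers it was called, as was that of Runx3 without AHRKO replicate 5. Tcf7 and Runx3 were called higher in all 22 alternatives, with adjusted p up to 0.0208 and 0.0183. The stricter filter left Tbx21 untested. The causes were not tested.

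With the replicate number as a block, 4 factors were higher: Foxp3 was at 1.59 (adjusted p = 0.0926) and Ikzf2 at 0.61 (adjusted p = 0.0516), neither called, and Eomes at -0.061. Over all genes the block gave 1114 higher and 1240 lower, in place of 2451 and 2106. The labels share only a number: same-numbered libraries had correlations of -0.468 to 0.029 in their deviations from the group means, and 0 of 6 AHRKO libraries correlated best with their own number. The 31 counts of Tbx21 in WT libraries limit its fold change.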
